A study of Mus musculus with 2 samples.

Results

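A set of 8 microRNA genes, which form 4 neuron-enriched microRNAs with 2 genomic copies each, was followed through microRNA-seq libraries of mouse hippocampus. The genes, Mir128-1, Mir128-2, Mir129-1, Mir129-2, Mir138-1, Mir138-2, Mir218-1 and Mir218-2, were taken by name, and all 8 were among the 2202 microRNA genes counted. The tissue came from female B6CASTF1/J mice, offspring of C57BL/6J and CAST/EiJ parents, at 10 days of age. The series has 1 group of 2 biological replicates, and the labels tie each library to a different set of 3 females, read here as a pool, so the spread between libraries covers animals, dissection and library preparation together. Small RNA below 30 nt was sequenced, with 5479267 sense counts on microRNA genes in replicate 1 and 3563226 in replicate 2. Without a second condition, the comparison of interest was between the 2 copies of each microRNA and between their host genes.

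A microRNA gene is transcribed as a longer RNA, from its own promoter or within a host gene, and is cut to a hairpin and then to a short duplex, of which a 5′ arm (5p) or a 3′ arm (3p) is loaded into Argonaute. Bases 2 to 8 of the loaded arm, the seed, pair with target messages. miR-128 is enriched in brain and dampens neuronal excitability in mice. miR-138 limits dendritic spine size in rat hippocampal neurons, where miR-129 represses the potassium channel Kv1.1. miR-218 is known best from motor neurons and is also made in other neurons.

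The arm that gives each microRNA its name was identical in both copies. The hairpins are printed to show where a read can be placed, with capitals for the longest stretch that is the same in the 2 copies. All 8 GENCODE hairpins matched RefSeq hairpins (GRCm38.p6) letter for letter, and they are written 5′ to 3′ on the strand of the gene.
Mir128-1: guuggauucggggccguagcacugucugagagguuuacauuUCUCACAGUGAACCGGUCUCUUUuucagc
Mir128-2: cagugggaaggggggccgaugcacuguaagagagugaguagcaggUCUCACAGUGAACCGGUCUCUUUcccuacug
Mir129-1: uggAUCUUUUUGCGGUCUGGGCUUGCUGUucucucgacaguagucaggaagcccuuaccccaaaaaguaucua
Mir129-2: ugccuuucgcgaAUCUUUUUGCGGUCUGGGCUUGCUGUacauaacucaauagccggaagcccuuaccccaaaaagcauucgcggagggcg
Mir138-1: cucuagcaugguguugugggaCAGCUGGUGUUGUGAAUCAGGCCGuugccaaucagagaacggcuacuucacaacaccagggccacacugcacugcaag
Mir138-2: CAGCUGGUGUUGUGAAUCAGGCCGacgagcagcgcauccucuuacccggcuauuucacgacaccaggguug
Mir218-1: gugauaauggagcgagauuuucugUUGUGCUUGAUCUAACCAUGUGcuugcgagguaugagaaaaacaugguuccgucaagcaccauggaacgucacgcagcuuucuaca
Mir218-2: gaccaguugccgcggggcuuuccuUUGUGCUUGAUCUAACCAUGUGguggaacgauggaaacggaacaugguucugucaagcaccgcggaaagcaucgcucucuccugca

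The identical stretch measured 23 nt in the Mir128 copies, 26 nt in the Mir129 copies, 24 nt in the Mir138 copies and 22 nt in the Mir218 copies. In each pair it contained the whole shared arm. It ended with the last base of miR-128-3p and of miR-138-5p, and ran 3 bases past miR-129-5p and 1 base past miR-218-5p. The shared arms are shown with their seeds in capitals.
mmu-miR-128-3p: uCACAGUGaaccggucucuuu
mmu-miR-129-5p: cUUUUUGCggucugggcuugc
mmu-miR-138-5p: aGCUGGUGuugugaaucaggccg
mmu-miR-218-5p: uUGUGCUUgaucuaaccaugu

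The opposite arms differed between copies, and 7 of them matched a RefSeq entry. They are shown, again with the seed in capitals, because no other annotated microRNA hairpin at another locus held any of these 7 sequences.
mmu-miR-128-1-5p: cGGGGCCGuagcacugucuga
mmu-miR-128-2-5p: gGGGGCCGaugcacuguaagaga
mmu-miR-129-2-3p: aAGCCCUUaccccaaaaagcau
mmu-miR-138-1-3p: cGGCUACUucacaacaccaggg
mmu-miR-138-2-3p: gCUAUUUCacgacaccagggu
mmu-miR-218-1-3p: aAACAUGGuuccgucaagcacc
mmu-miR-218-2-3p: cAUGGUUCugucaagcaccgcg

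The 2 opposite arms of miR-128 shared a seed, whereas those of miR-138 and miR-218, as annotated, had different seeds in the 2 copies. For miR-218 the annotated arms start at base 64 of Mir218-1 and base 67 of Mir218-2. The seed of miR-218-1-3p also occurs in the Mir218-2 hairpin. Mir129-1 had no annotated opposite arm to compare. Aligned without gaps to the hairpin of the other copy, miR-128-1-5p and miR-128-2-5p had 5 mismatches each. For miR-129-2-3p there was 1 mismatch over 22 nt, with a run of 19 identical bases. The opposite arms of miR-138 and miR-218 had 2 or 3 mismatches, with identical runs of 9 and 10 bases. The seed of miR-218-5p also occurs in miR-7002-3p, whose gene had 0 and 2 counts in replicates 1 and 2. The seeds of miR-128-3p, miR-129-5p and miR-138-5p were in no other mature RefSeq microRNA of the mouse table.

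A read with more than 1 matching place enters no gene's count here. Such reads made up 43.2% of all reads in replicate 1 and 39.3% in replicate 2. A read made up of an unchanged shared arm alone has at least 2 places in the genome. Placed by exact match, the counts of a member therefore hold reads from its opposite arm or reads that reach past the identical stretch. The aligner and read filters are not named. Whether shared-arm reads with a changed or added base were counted for 1 copy was not tested. Which arm the counts came from was not determined, and the level of the shared mature arm cannot be read from them. Cutting each hairpin into all windows of 22 nt, 47 of 49 windows of Mir128-1 and 53 of 55 of Mir128-2 were found in no other microRNA gene. The corresponding numbers were 47 of 52 for Mir129-1 and 64 of 69 for Mir129-2, 75 of 78 for Mir138-1 and 47 of 50 for Mir138-2, and 88 of 89 for each Mir218 gene. The search covered the annotated microRNA hairpins and not the rest of the genome. It used the reference sequence only, and CAST/EiJ variants at these hairpins were not examined.

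**Figure D1:**
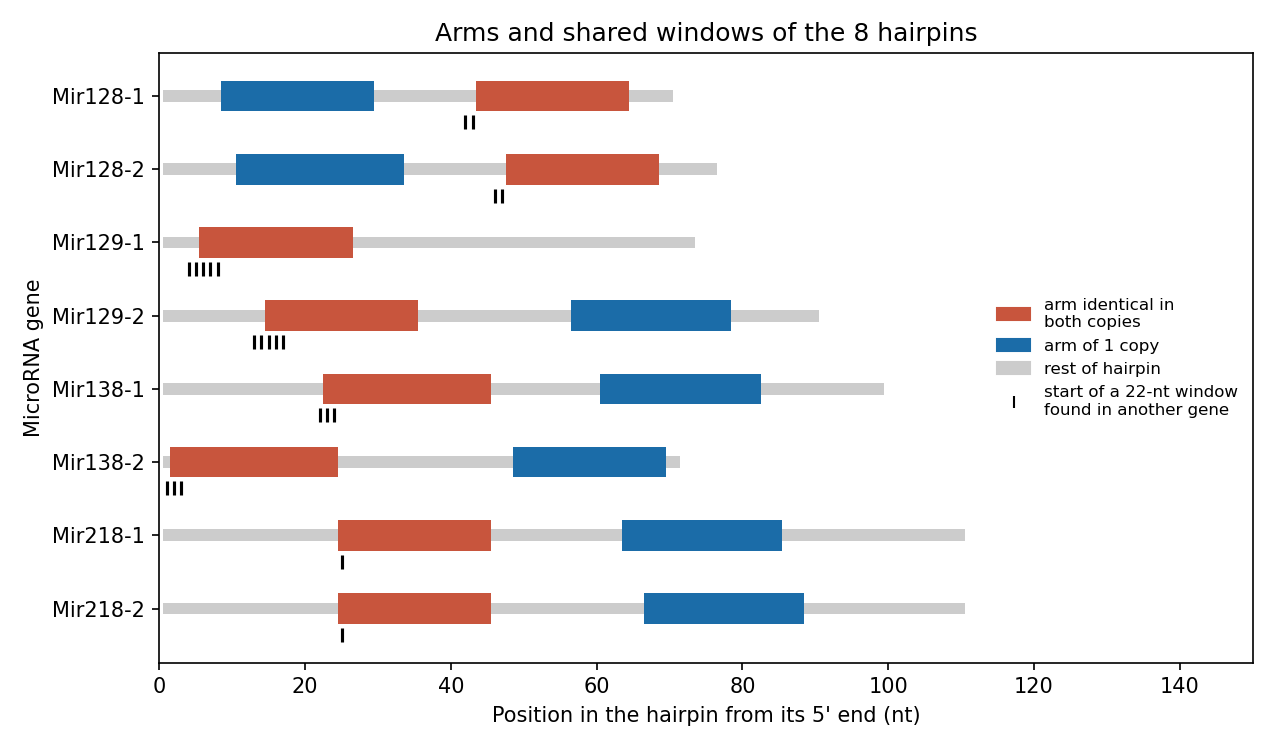
Each bar is a hairpin drawn to scale from its 5′ end in nt, with the arm shared by both copies in red, the arm of 1 copy in blue and black ticks at the starts of 22-nt windows that occur in another microRNA gene. The ticks, between 1 and 5 per hairpin, sit at the shared arm, which is the 3′ arm in the Mir128 genes and the 5′ arm in the other 6.

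All 8 genes were detected, with at least 10 sense counts in each library, as were 429 of the 2202 genes. Levels are given as CPM, a gene's sense counts scaled to a library total of 1000000. They are not divided by hairpin length, since a read below 30 nt spans about a whole arm. Together the 8 genes held 1.56% of the counts in replicate 1 and 1.95% in replicate 2 (1.76% ± 0.272, SD, n = 2). Their median level was 1489 CPM, beside 87.8 CPM for all detected genes. The range was wide, as the mean level of the highest gene, Mir128-1, was 597 times that of the lowest, Mir218-1.

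Mir128-1 (ENSMUSG00000065520.2, chr1:128202361-128202430, plus strand) had 34682 counts, or 6330 CPM, in replicate 1 and 24748 counts, or 6945 CPM, in replicate 2. It ranked 31 among the detected genes in each library. Mir128-2 (ENSMUSG00000065441.2, chr9:112118636-112118711, minus strand) had 13375 counts, or 2441 CPM, in replicate 1 and 8382 counts, or 2352 CPM, in replicate 2. Neither library of Mir128-2 reached those of Mir128-1, and the means were 6638 ± 435 CPM for Mir128-1 and 2397 ± 62.7 CPM for Mir128-2 (SD, n = 2).

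Mir129-1 (ENSMUSG00000065469.1, chr6:29022619-29022691, plus strand) had 1061 counts, or 194 CPM, in replicate 1 and 1295 counts, or 363 CPM, in replicate 2. Mir129-2 (ENSMUSG00000065511.1, chr2:94241364-94241453, minus strand) had 3742 counts, or 683 CPM, in replicate 1 and 4987 counts, or 1400 CPM, in replicate 2. Mir129-1 was the lower copy in both libraries, and both copies were higher in replicate 2. The means were 279 ± 120.1 CPM for Mir129-1 and 1041 ± 507 CPM for Mir129-2 (SD, n = 2).

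Mir138-1 (ENSMUSG00000065414.1, chr9:122682876-122682974, plus strand) had 23540 counts, or 4296 CPM, in replicate 1 and 20495 counts, or 5752 CPM, in replicate 2. Mir138-2 (ENSMUSG00000065512.3, chr8:94324311-94324381, plus strand) had 8152 counts, or 1488 CPM, in replicate 1 and 8505 counts, or 2387 CPM, in replicate 2. The 2 copies did not overlap, and both were higher in replicate 2. The means were 5024 ± 1029 CPM for Mir138-1 and 1937 ± 636 CPM for Mir138-2 (SD, n = 2).

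Mir218-1 (ENSMUSG00000065603.1, chr5:48223942-48224051, plus strand) had 68 counts, or 12.4 CPM, in replicate 1 and 35 counts, or 9.82 CPM, in replicate 2. Mir218-2 (ENSMUSG00000065583.1, chr11:35616816-35616925, plus strand) had 1034 counts, or 189 CPM, in replicate 1 and 964 counts, or 271 CPM, in replicate 2. Mir218-1 was thus the lowest of the 8 genes in both libraries and ranked 314 and 326 among the detected genes. The means were 11.1 ± 1.83 CPM for Mir218-1 and 229.6 ± 57.9 CPM for Mir218-2 (SD, n = 2).

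**Figure D2:**
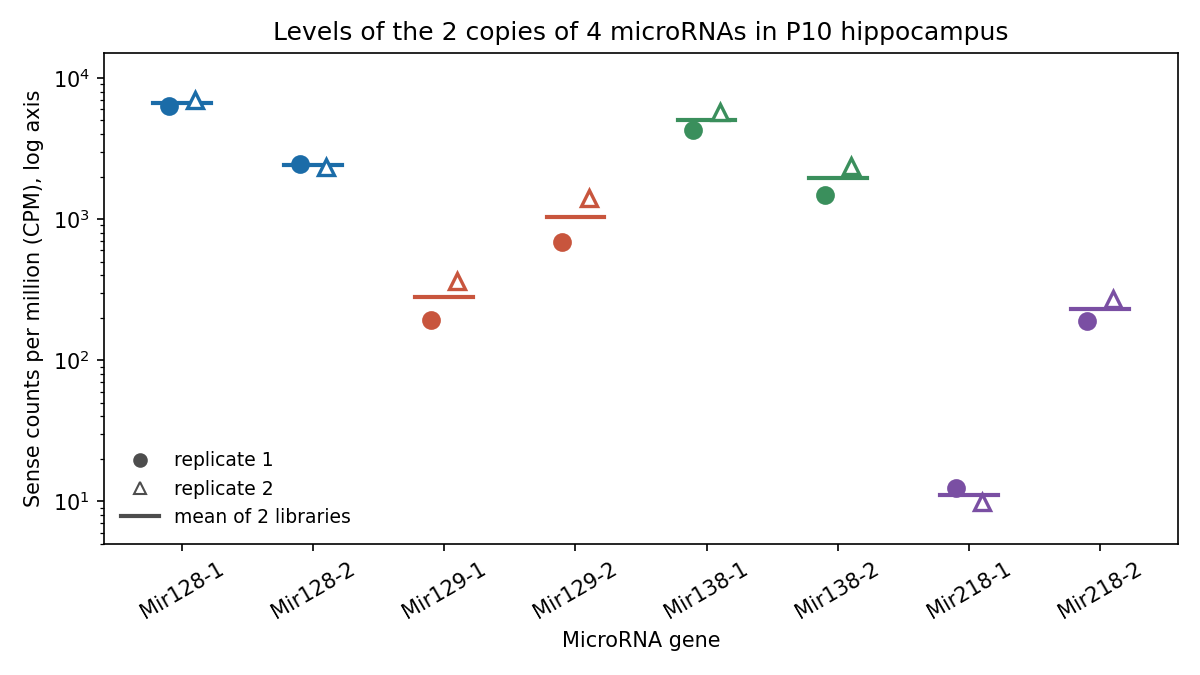
The vertical log axis gives CPM, and each microRNA gene on the horizontal axis has a filled circle for replicate 1, an open triangle for replicate 2 and a line at their mean. Copy 1 lies above copy 2 for Mir128 and Mir138 and below it for Mir129 and Mir218, in both libraries.

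The order of mean levels was Mir128-1, Mir138-1, Mir128-2, Mir138-2, Mir129-2, Mir129-1, Mir218-2 and Mir218-1. Several neighbours in this order were not separated by the libraries. Mir128-2 and Mir138-2 changed places, as Mir138-2 was the higher in replicate 2 and Mir128-2 in replicate 1. Mir129-1 and Mir218-2 overlapped over the libraries, at 194 and 363 CPM for Mir129-1 and 189 and 271 CPM for Mir218-2. Mir138-2 and Mir129-2 kept their order within each library, although Mir129-2 in replicate 2 came within the SD of Mir138-2. Summed over copies, Mir128 stood at 9034 ± 373 CPM, Mir138 at 6961 ± 1665 CPM, Mir129 at 1320 ± 627 CPM and Mir218 at 241 ± 56.0 CPM (SD, n = 2), and this order held in both libraries.

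The genes with the most similar level, measured as the sum over the 2 libraries of the absolute log2 CPM difference, were Mir411 for Mir128-1, the let-7 family member Mir98 for Mir128-2, Mir7080 for Mir129-1, Mir219a-2 for Mir129-2, Mir221 for Mir138-1, Mir369 for Mir138-2, Mir6900 for Mir218-1 and Mir186 for Mir218-2. The closest was Mir98, with a summed difference of 0.035, at 2394 and 2364 CPM. The least close was Mir219a-2, with 0.32, at 760.3 and 1248 CPM. Over 2 libraries this compares levels and carries nothing about shared control.

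In every pair the copies differed by more than counting error in both libraries. Mir128-1 had 2.59 times the counts of Mir128-2 in replicate 1 and 2.95 times in replicate 2. Mir138-1 had 2.89 times the counts of Mir138-2 in replicate 1 and 2.41 times in replicate 2. Mir129-1 had 0.284 times the counts of Mir129-2 in replicate 1 and 0.26 times in replicate 2. Mir218-1 had 0.0658 times the counts of Mir218-2 in replicate 1 and 0.0363 times in replicate 2. In these counts copy 1 was the higher one for Mir128 and Mir138, and copy 2 for Mir129 and Mir218.

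As a share of the counts of both copies, Mir128-1 held 72.2% in replicate 1 (Clopper-Pearson 95% interval 71.8% to 72.6%) and 74.7% in replicate 2 (74.2% to 75.2%). Mir138-1 held 74.3% (73.8% to 74.8%) and 70.7% (70.1% to 71.2%). Mir129-1 held 22.1% (20.9% to 23.3%) in replicate 1 and 20.6% (19.6% to 21.6%) in replicate 2. Mir218-1 held 6.17% (4.82% to 7.76%) and 3.5% (2.45% to 4.84%). For Mir128 and Mir138 the intervals of the 2 libraries did not meet, and for Mir129 and Mir218 they overlapped. The intervals cover counting error only, since no molecular identifiers are stated and several reads can come from 1 molecule.

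On the log2 scale, copy 1 over copy 2, the mean ratio was 1.47 ± 0.13 for Mir128, 1.40 ± 0.18 for Mir138, -1.88 ± 0.09 for Mir129 and -4.34 ± 0.60 for Mir218 (SD, n = 2). A two-sided exact binomial test at equal shares was run within each library on every microRNA with exactly 2 numbered copies and at least 10 counts over both copies in each library. Of 43 such pairs in the annotation, 23 met the minimum, and 16 had no sense count at all. All 4 pairs were called, with a Benjamini-Hochberg adjusted p of at most 0.05 in both libraries and the same direction, against 87% of the 23 pairs. The adjusted p of Mir218 was 2.62e-222 in replicate 1 and 3.96e-236 in replicate 2, and those of the other 3 were too small for the software to write. A share of 4 in 4 is close to that background, and the 3 tested pairs that were not called were Mir24, Mir29b and Mir365. Over the 2 libraries, an exact sign-flip test cannot go below 0.5, so the difference between copies rests on the libraries having the same direction.

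Unequal copies were the rule among two-copy microRNAs. The median absolute log2 copy ratio was 1.91 over the 23 pairs and 2.64 over the 19 other pairs, and both medians stayed at 1.91 and 2.64 with counts of 0 set to the limit of 3 counts. Mir128, Mir129 and Mir138 lay below the median of the other pairs, and Mir218 lay above it. A larger ratio than that of Mir218 was found for 6 other pairs, or 5 with counts of 0 at their limit. With 0.5 counts added for log2, the pairs furthest towards copy 1 were Mir3074 and Mir92. Mir3074 had 26 and 96 counts for copy 1 and 0 in both libraries for copy 2. Mir92 had 6032 and 5754 counts for copy 1 and 109 and 86 for copy 2, with a log2 ratio of 5.92. Furthest towards copy 2 were Mir181b and Mir194. Mir181b had 203 and 171 counts for copy 1 and 23021 and 16668 for copy 2, with a log2 ratio of -6.71. Mir194 had 2 and 0 counts for copy 1 and 136 and 98 for copy 2. The places of Mir3074 and Mir194 in this order rest on the value set for a count of 0, and both ratios are smaller at the limit of 3 counts. The SD of the ratio between libraries was at most 0.18 for Mir128, Mir129 and Mir138, against a median SD of 0.48 over the 23 pairs. That median includes pairs with few counts, such as Mir194 at 1.31 and Mir3074 at 1.32. Among other pairs with many counts, the SD was 0.03 for Mirlet7f, 0.12 for Mirlet7c and 0.54 for Mirlet7a. A small spread is thus not particular to the members.

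**Figure D3:**
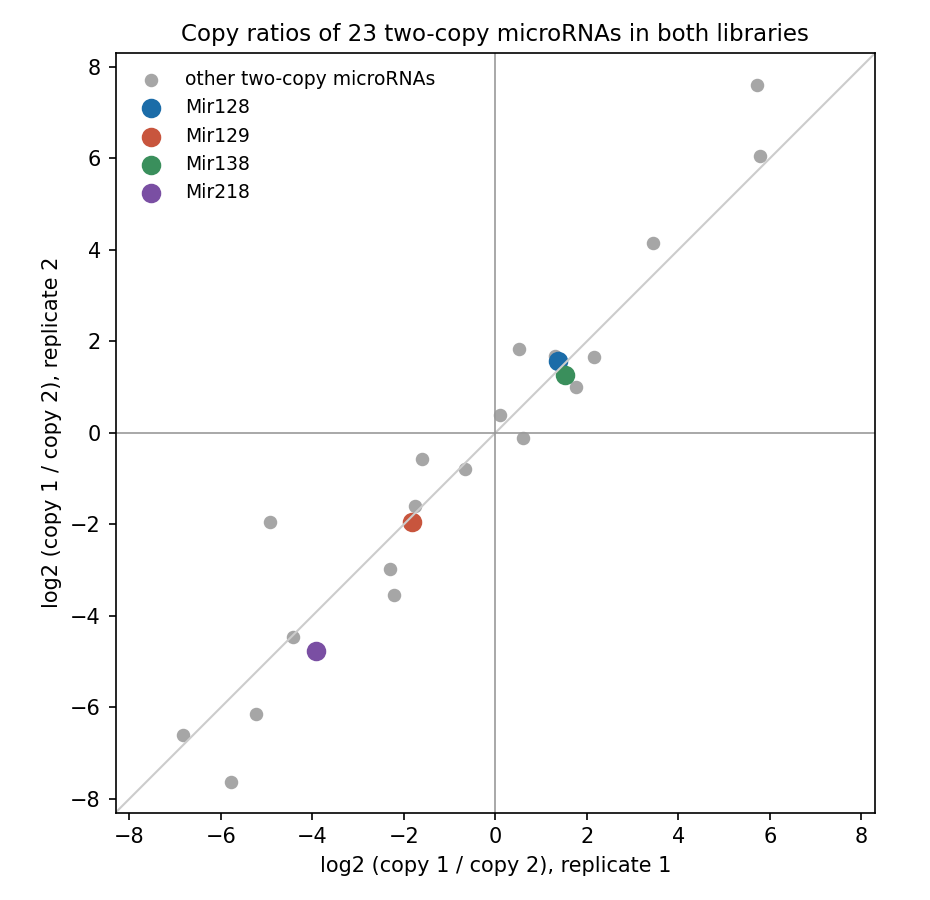
Each point is a two-copy microRNA with its log2 ratio of copy 1 over copy 2 in replicate 1 on the horizontal axis and in replicate 2 on the vertical axis, with a grey diagonal for equal ratios. Mir128 and Mir138 lie near 1.4 on both axes, Mir129 near -1.9 and Mir218 at -3.92 and -4.76, among 19 other pairs in grey.

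The 2 libraries were then set against each other for the copy ratio by a two-sided Fisher's exact test of the 4 counts, which needs no scaling of the libraries. The ratio differed beyond counting error for 3 of the 4 members, against 60.9% of the 23 pairs. The intervals given for the differences are Wald approximations from the 4 counts, and only the p-values come from the exact test. For Mir128 the log2 ratio was lower in replicate 1, with a difference of -0.19 (95% interval -0.23 to -0.14, adjusted p = 8.51e-15, exact test). For Mir138 it was higher in replicate 1 by 0.26 (0.21 to 0.31, adjusted p = 6.65e-22, exact test). For Mir218 it was higher by 0.85 (0.25 to 1.45, adjusted p = 0.00756, exact test), on 68 and 35 counts of Mir218-1. For Mir129 the difference of 0.13 (-0.01 to 0.26) did not pass (adjusted p = 0.0934, exact test). Without regard to strand, the shift of Mir129 was called too, making 4 of 4, against 13 of 20 tested pairs. That call rests on the 21 and 9 counts that Mir129-2 keeps there. These shifts were small beside the copy ratios themselves for Mir128 and Mir138, and the test compares 2 libraries with counting error alone, not conditions.

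Each gene lay on the sense strand of an annotated host, and the 4 microRNAs differed in the kind of host. The Mir128 copies lie in introns of 2 related genes. Mir128-1 is in R3hdm1, which encodes a protein with an R3H domain, 99.1 kb from the annotated 5′ end of a gene of 134.4 kb, in intron 19 of 26 of the coding transcript with the most introns. Mir128-2 is in Arpp21, which encodes a cAMP-regulated phosphoprotein with the same kind of domain, 117.2 kb into a gene of 170.8 kb and in intron 19 of 20. The gene in R3hdm1 had the higher counts in both libraries.

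The Mir218 copies also lie in introns of a pair of paralogues. Mir218-1 is in Slit2 and Mir218-2 in Slit3, and both genes encode secreted ligands of the Robo receptors that guide axons. Mir218-1 lies 240.8 kb into a gene of 324.6 kb, in intron 16 of 38, and Mir218-2 lies 495.6 kb into a gene of 587.3 kb, in intron 14 of 35. The gene in Slit3 had the higher counts in both libraries. All 7 annotated transcripts of Slit2 that span Mir218-1 have it in an intron, as do the 9 of Arpp21 that span Mir128-2, the 2 of R3hdm1 that span Mir128-1 and the single one of Slit3.

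Mir129 and Mir138 lie in non-coding genes. Mir129-1 lies on an exon of Gm3294, a long non-coding gene, 40.98 kb from its start in a gene of 47.3 kb. Mir129-2 is in an intron of Mir670hg, 23.5 kb into a gene of 104.3 kb. Mir138-1 is in an exon of Gm47135, a transcribed pseudogene of 0.9 kb, and Mir138-2 is in an exon of C78859, a long non-coding gene of 5.94 kb. Host transcripts are not measured in libraries of small RNA, so no host level stands beside these counts.

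**Figure D4:**
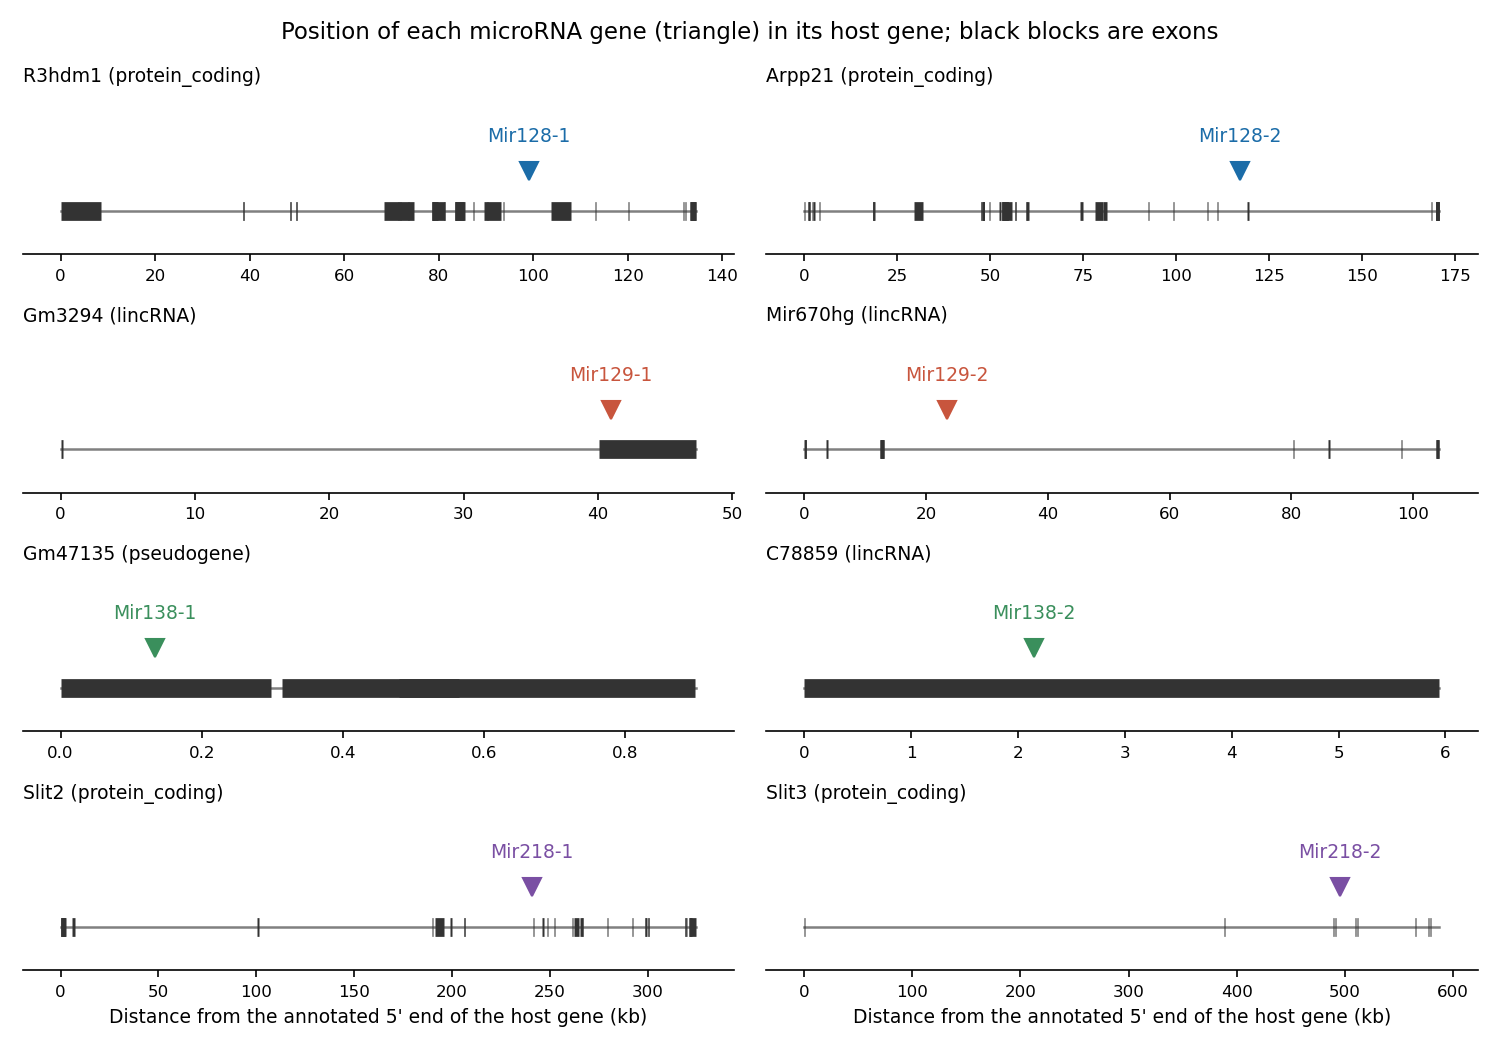
Each panel shows a host gene from its annotated 5′ end on the left, in kb on its own scale, with exons of all annotated transcripts as black blocks and the microRNA gene as a triangle. The Mir128 and Mir218 genes and Mir129-2 lie between exons, and Mir129-1, Mir138-1 and Mir138-2 lie on an exon.

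Few other microRNA genes share these loci. Mir670, the microRNA after which Mir670hg is named, lies 19.8 kb from Mir129-2 on the same strand and had 211 counts in replicate 1 and 172 in replicate 2 (43.4 ± 6.90 CPM, SD, n = 2). A further annotated gene in that host, Gm23630, had 0 counts in both libraries. At the other 7 genes the nearest microRNA gene on the same strand was between 165 kb (Mir103-1, from Mir218-2) and 3996 kb (Mir135b, from Mir128-1) away. Among the 8 hairpins, GC content ran from 45.5% in Mir218-1 to 57.7% in Mir138-2, beside a median of 50.8% over all annotated hairpins. The predicted folding energy was -29.3 kcal/mol for Mir128-1 and -37.3 for Mir128-2, -31.0 for Mir129-1 and -48.0 for Mir129-2, -45.5 for Mir138-1 and -29.3 for Mir138-2, and -36.6 for Mir218-1 and -42.3 for Mir218-2. The copy with more counts had the lower predicted energy in the Mir129, Mir138 and Mir218 pairs and the higher one in the Mir128 pair. It was also the longer annotated hairpin in the Mir129 and Mir138 pairs. In the Mir128 pair it was the shorter one, at 70 nt against 76 nt, and both Mir218 hairpins measured 110 nt.

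Mir129-2 is the member whose value depends on strand. Mir129b is annotated on the opposite strand within the same hairpin, at chr2:94241378-94241442. It had 3 sense counts in replicate 1 and 4 in replicate 2. In the column that ignores strand, a read over 2 microRNA genes is ambiguous and in neither, and Mir129-2 had 21 and 9 counts there in place of 3742 and 4987. With those values the log2 ratio of Mir129-1 over Mir129-2 was 6.36, the reverse of the sense-strand direction. The other 7 genes had no opposite-strand count and the same count with and without strand.

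Between the libraries, 7 of the 8 genes differed beyond counting error after TMM scaling, against 61.3% of the 429 detected genes (two-sided exact binomial test, adjusted p of at most 0.05). That background moves with the count minimum, as 35.3% of 817 genes were called with no minimum and 82.4% of 267 genes with at least 100 counts in each library, where 7 of 7 members tested were called. Mir128-2 alone of the called members was higher in replicate 1, against 32.6% of detected genes called in that direction. The other 6 were lower in replicate 1, against 28.7% of detected genes. The median absolute log2 ratio of the libraries was 0.42 for the 8 genes and 0.33 for all detected genes.

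The largest differences were in the Mir129 genes. The log2 ratio of replicate 1 over replicate 2 was -0.97 for Mir129-2 (adjusted p = 4.11e-215, exact binomial test) and -0.85 for Mir129-1 (adjusted p = 5.57e-45, exact binomial test). Those of Mir138-2 and Mir138-1 were -0.62 and -0.36, that of Mir218-2 was -0.46, and those of Mir128-1 and Mir128-2 were -0.07 and 0.12. Both copies of Mir129 and both of Mir138 had thus a lower value in replicate 1, whereas the Mir128 genes differed little and in opposite directions. Mir218-1, at 0.39, did not pass on its few counts (adjusted p = 0.264, exact binomial test). These differences are between 2 libraries of 1 group, and replicate 1 is also the deeper library.

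**Figure D5:**
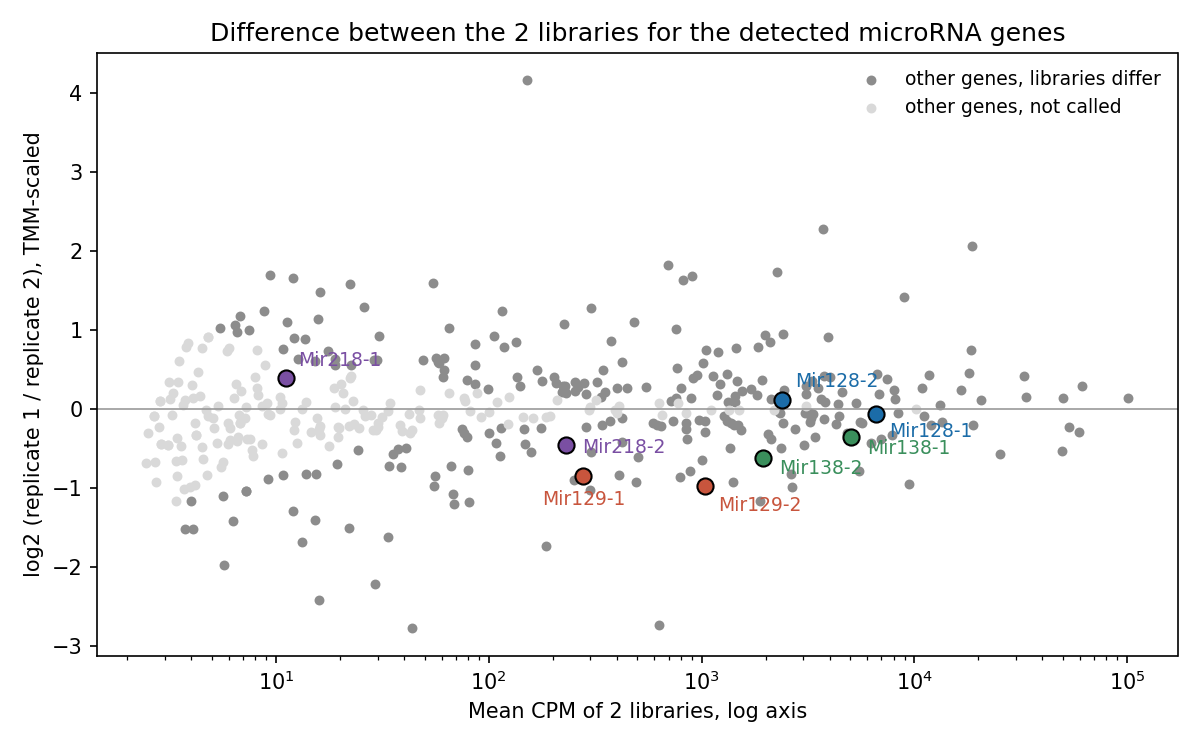
Every detected gene is a point, with its mean CPM on a horizontal log axis and the TMM-scaled log2 ratio of replicate 1 over replicate 2 on the vertical axis; dark grey marks other genes that differ beyond counting error and light grey those that do not. The Mir129 and Mir138 genes and Mir218-2 lie below 0, the Mir128 genes close to 0, and Mir218-1 at 0.39.

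Other neuron-enriched microRNAs did not share a direction between the libraries. Of 21 listed genes, 18 were detected. In replicate 1, 8 were called higher and 7 lower, against 32.6% and 28.7% of detected genes. The list ran from Mir139, at 59441 ± 10236 CPM, to Mir129b, at 0.835 ± 0.407 CPM (SD, n = 2), with a median of 123 CPM. Mir129b, on the opposite strand of the Mir129-2 hairpin, had 3 and 4 counts and was not among the detected genes. The neuronal Mir124a genes, which like the members share a mature arm among copies, were low in these counts, with 10 and 20 for Mir124a-1 and 5 and 3 for Mir124a-2. Mir212, which is processed from the same transcript as Mir132 and follows neuronal activity, had 1564 counts (285 CPM) in replicate 1 and 1904 (534 CPM) in replicate 2, a log2 ratio of -0.84 like those of the Mir129 genes (adjusted p = 4.10e-65, exact binomial test), and was singled out after its value was seen. Mir132 itself went the other way, at 0.24 (adjusted p = 2.88e-102, exact binomial test).

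Genes listed as markers of other cells differed between the libraries as well. Many of the listed genes are not confined to the cells they stand for. A difference in a single gene is therefore no readout of a cell type, and specificity was not tested here. The astrocyte, microglia and choroid plexus lists held genes called in each direction. The astrocyte list summed to 2673 CPM in replicate 1, against 2677 CPM in replicate 2, but 2 of its 6 genes were called higher and 2 lower in replicate 1, and these offset each other. Mir21a had 1354 CPM in replicate 1, against 441 CPM in replicate 2, and Mir29a had 943 CPM in replicate 1, against 1874 CPM in replicate 2. The microglia and myeloid list, at 1936 and 1964 CPM, likewise had 2 of 5 called in each direction, with log2 ratios of 0.42 for Mir146 and -0.38 for Mir150. The sums of these 2 lists are therefore no measure of how alike the libraries are in those cells.

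The oligodendrocyte list summed to 1563 CPM in replicate 1, against 2041 CPM in replicate 2. That difference came from Mir219a-2, at 760.3 and 1248 CPM, whereas Mir338, at 783 and 776 CPM, and Mir219a-1, at 20.1 and 17.4 CPM, did not pass the test. The 3 endothelium and vessel wall genes were all called higher in replicate 1, against 32.6% of detected genes. Their log2 ratios were small, at 0.12 for Mir126a, 0.19 for Mir143 and 0.22 for Mir145a. Of genes with at least 100 counts in each library, as these have, 82.4% were called in either direction. The list summed to 11756 CPM in replicate 1, against 11138 CPM in replicate 2. The choroid plexus and ependyma list summed to 6232 and 6133 CPM, with 2 genes called higher and 1 lower in replicate 1. Red cell microRNAs summed to 55.5 and 64.3 CPM, and the hepatocyte marker Mir122 stood at 34.7 and 34.2 CPM, with no gene called in either list.

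Of the muscle list only Mir206 was counted, at 40.2 CPM in replicate 1, against 97.1 CPM in replicate 2, and it was called lower in replicate 1. The other 4 genes, the copies of Mir1a and Mir133a, had 0 counts, but as copies with a shared mature arm they are subject to the same loss of reads with several places, so their 0 does not show that these microRNAs were absent. The part of cell makeup in the library differences of the 8 genes was not tested, and in bulk tissue fewer cells of a type and less RNA per cell cannot be told apart.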

How the data were processed

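MicroRNA-seq counts of 2 libraries were used as deposited. The authors deposited unnormalized counts of reads on each microRNA gene, in 1 column that ignores strand and 1 for each strand, on build mm10 with GENCODE M21, per the file notes deposited with each library. The sources used here do not name the aligner, the counting program or the read filters. The strand column with the larger total over gene rows was taken as sense. The 4 entries without a gene were left out of totals. Unmapped reads were 14.2% and 18.0% of all reads in replicates 1 and 2, reads with several places 43.2% and 39.3%, and reads outside microRNA genes 6.16% and 5.17%. Sense counts held 36.4% and 37.6%, and a count of 0 allows up to 0.548 and 0.842 CPM.

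Symbols, positions and hosts came from GENCODE M21, arms from RefSeq. Copies were compared within a library by two-sided exact binomial tests and between libraries by Fisher's exact test. The libraries were compared across all detected genes by an exact binomial test with TMM scaling (edgeR 4.0.16), a minimum of 10 counts per library and Benjamini-Hochberg adjustment, with 0.5 counts added for log2 ratios. P-values compare these 2 libraries only. Tests were run with SciPy 1.17.1, and scaling factors came from R 4.3.3. The tests were checked on simulated counts with counting error only, a check that does not cover spread between animals or libraries. Folding energies came from RNAfold 2.7.2. Named genes are the 8 members, the nearest gene in level to each, the 2 highest and 2 lowest copy ratios, microRNA genes within 10 kb or in the same host, and the highest and lowest of the neuron list; genes nearest on the same strand, a gene sharing a seed, marker genes, Mir212 and Mir132 were added outside that rule. DESeq2 1.42.0 size factors, other minimums, strand treatments, denominators and window lengths were tried as alternatives. Members and lists were chosen with earlier results of these data known.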

Additional observations from a re-analysis of the deposited data

Results flagged for a closer look

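At Mir129b the opposite-strand counts lay above the limit of 3 counts that a count of 0 allows. They numbered 3721 in replicate 1 and 4978 in replicate 2. Added to the 21 and 9 counts of Mir129-2 without regard to strand, they equal the 3742 and 4987 sense counts of Mir129-2, whose hairpin covers Mir129b on the other strand. They are thus reads on the strand of Mir129-2 that its sense counts, and so the Mir129 comparisons, already include.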

How the results depend on the processing

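Without regard to strand, the log2 copy ratio of Mir129 was 6.36, the reverse of the sense-strand value, by loss of ambiguous reads at Mir129-2. Divided by hairpin length, an alternative chosen after seeing the data, the log2 copy ratio was -1.58 for Mir129 and 0.92 for Mir138, in the same direction as without it. With all reads as the denominator, the 8 genes held 0.65% instead of 1.76%. The median share of windows found in no other microRNA gene was 89.3%, 92.6% and 99.3% with windows of 18, 20 and 24 nt, against 96.0% with 22 nt. The numbers of pairs and of genes called stayed within 1.5 times the reported ones under other count minimums, strand treatment, DESeq2 size factors or library totals, but the share of tested genes called between libraries moved to 35.3% with no minimum and 82.4% at 100 counts, against 61.3%. The library calls of the 8 genes held wherever a gene could be tested. The shift of the Mir129 copy ratio between libraries, not called on sense counts, was called without regard to strand. There Mir129-2 keeps only 21 and 9 counts. Without either replicate, all 4 copy ratios kept their direction. Leaving out a replicate ends the comparison of libraries. No paired analysis was possible because the series has 1 group. Depth limits Mir218-1, at 68 and 35 counts.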
